A study of Mus musculus with 6 samples.

Results

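The chemokine genes Ccl1, Ccl3, Ccl4, Ccl5, Ccl9, Xcl1 and Cxcl10 were followed in mouse CD8+ T cells, which become cytotoxic once activated. They were taken by gene symbol from tables of 55487 genes, and all 7 were found. The cells came from C57BL/6 mice and were kept for 48 h with 5 mM itaconate or with NaCl as the control, with 3 RNA-seq libraries in each group. Itaconate is a metabolite made from cis-aconitate in the mitochondria of inflammatory macrophages. The labels give neither the NaCl concentration nor how the cells were activated, and do not name the mouse or culture behind each replicate. The p-values thus rest on the spread among the libraries at hand, and part or all of that spread may be technical. Expected counts summed to between 18280217 and 31643408 per library.

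Chemokines are small secreted proteins that guide leukocytes by binding G protein-coupled receptors. They are grouped by the spacing of the first cysteines of the mature protein. CC chemokines have adjacent cysteines, CXC chemokines have a residue between them, and XCL1 lacks one of the pair. Activated CD8 T cells are known to release CCL3, CCL4, CCL5 and XCL1 together with interferon-gamma. CCL3, CCL5 and CCL9 bind CCR1, CCL1 binds CCR8, XCL1 binds XCR1 on cross-presenting dendritic cells, and CXCL10 binds CXCR3. Secretion of the proteins was not measured.

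The coding sequences show these classes, and for 6 of the 7 genes 36 bases around the first cysteine codon after codon 25 are given from 1 coding transcript per gene in GENCODE M21. Capitals mark cysteine codons within 3 codons of that position. The sequences are shown because the spacing is what assigns each gene to its class.
Ccl4: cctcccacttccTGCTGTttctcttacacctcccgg
Ccl5: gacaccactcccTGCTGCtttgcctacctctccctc
Ccl9: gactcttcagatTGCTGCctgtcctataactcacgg
Ccl1: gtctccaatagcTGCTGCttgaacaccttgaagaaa
Cxcl10: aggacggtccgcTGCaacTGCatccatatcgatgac
Xcl1: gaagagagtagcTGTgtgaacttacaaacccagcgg
The pair of cysteine codons was adjacent in the 4 CC genes shown, separated by 1 codon in Cxcl10, and reduced to 1 codon in Xcl1. Coding sequences of the 7 genes were 258 to 369 bases long. Ccl3 and Ccl4 were the most alike, identical at 70.0% of 273 aligned bases, and Ccl5 and Cxcl10 the least, at 48.3% of 271. No stretch of 50 bases of Ccl1, Ccl3, Ccl4 or Ccl5 occurred in a transcript of another gene in that annotation. For Ccl9 1.97% of such stretches did, and the other genes that held any of them numbered 463.

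In GRCm38, with positions matched by Ensembl identifier, 4 of the CC genes lie close together on chromosome 11. Ccl5 (ENSMUSG00000035042) spans 83525778 to 83530518, Ccl9 (ENSMUSG00000019122) 83572919 to 83578636, Ccl3 (ENSMUSG00000000982) 83647844 to 83649355 and Ccl4 (ENSMUSG00000018930) 83662584 to 83664683. Ccl1 (ENSMUSG00000020702) lies at lower coordinates of chromosome 11, from 82176657 to 82305690, Xcl1 (ENSMUSG00000026573) on chromosome 1 at 164931644 to 164935527, and Cxcl10 (ENSMUSG00000034855) on chromosome 5 at 92346638 to 92348889. All are annotated as protein-coding. On the opposite strand Xcl1 overlaps the noncoding gene Gm20743, which held 15 to 43 counts per library, and Cxcl10 overlaps Art3, which held 0 to 5. The strand setting of the authors' counting is not given in the sources used here, so reads from the overlapping stretches cannot be assigned to a strand. Of the 50-base stretches of Xcl1 10.8% also occurred in Gm20743, and of those of Cxcl10 3.59% in Art3.

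Of the 7 chemokine genes, itaconate-treated cells had more Ccl1 mRNA and less Ccl5 and Cxcl10 mRNA, while Ccl3, Ccl4, Ccl9 and Xcl1 did not pass the test. Ccl1 was 3.80 times as high with itaconate (95% interval 2.34 to 6.17). Ccl5 was 2.31 times as high in control as in itaconate cells (1.79 to 2.99), and Cxcl10 2.47 times (1.64 to 3.71). The test was edgeR's quasi-likelihood test over all 12350 genes that passed the expression filter, with Benjamini-Hochberg adjustment and a threshold of 0.05. It called 1 of the 7 members higher and 2 lower. Over all tested genes it called 12.0%, of which 6.68% of tested genes were higher and 5.36% lower. All 7 members passed the filter. The median log2 fold change of the members was -0.04, beside 0.0059 for all tested genes. Of all calls 55.5% were higher with itaconate, and 39.1% when limma was run on log2(TPM + 1).

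**Figure D1:**
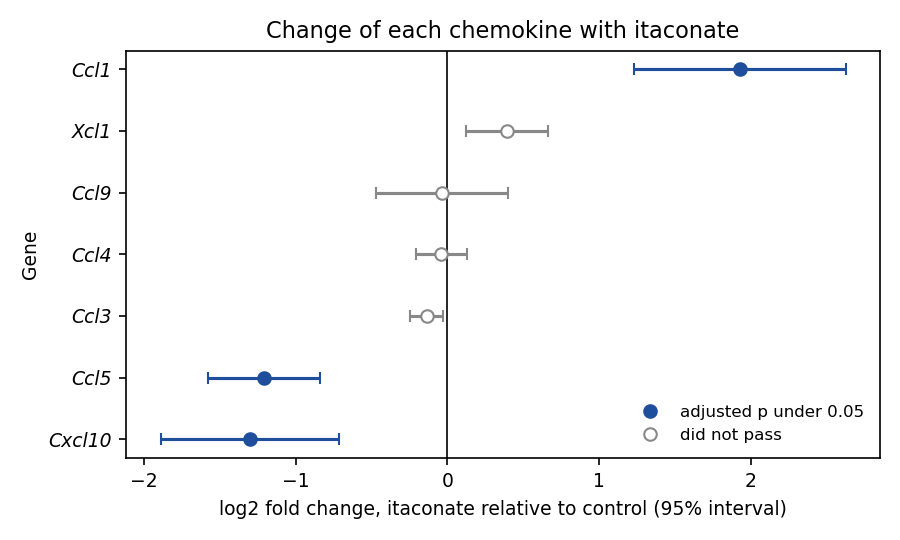
Log2 fold change of each chemokine gene, itaconate relative to control, with its 95% interval from edgeR's quasi-likelihood fit; filled points passed an adjusted p of 0.05 and open points did not. Ccl1 stands at 1.93, Ccl5 at -1.21 and Cxcl10 at -1.30, and the other members lie between -0.14 and 0.39.

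The levels fell into an abundant and a scarce group. TPM, a level per transcript length that lets genes be set side by side, was highest for Ccl3, the macrophage inflammatory protein 1-alpha, at 591 ± 9.8 in control and 511 ± 46 in itaconate cells (mean ± SD, n = 3). Ccl4, its close relative, stood at 410 ± 29 and 380 ± 8.1 TPM, and Xcl1, lymphotactin, at 383 ± 31 and 475 ± 48 TPM. These 3 genes together made up 95.37% to 97.01% of the summed TPM of the 7 members in each library. Ccl5, also called RANTES, had 38.7 ± 3.1 and 15.6 ± 4.3 TPM. Ccl1 had 7.72 ± 3.1 and 28.6 ± 9.4 TPM, Cxcl10 6.05 ± 2.2 and 2.24 ± 0.70 TPM, and Ccl9 4.69 ± 0.55 and 4.47 ± 1.8 TPM.

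The order of these TPM levels differed between the groups, although Ccl3, Ccl4 and Xcl1 did not pass the gene test. In control cells Ccl3 stood above all other members in every library. Ccl4 stood above Xcl1 in every control library, though their ranges across libraries overlapped. In itaconate cells Ccl3 and Xcl1 overlapped, and Xcl1 stood above Ccl4 in every library. Ccl5 stood above Ccl1 in every control library and below it in every itaconate library. The ratio of Ccl5 to Ccl1 TPM was 4.439, 9.064 and 3.801 in control replicates 1, 2 and 3. In itaconate replicates 1, 2 and 3 it was 0.5421, 0.5895 and 0.5194. At the low end Ccl1, Cxcl10 and Ccl9 changed order between control libraries. Ccl9 stood above Cxcl10 in every itaconate library, though their ranges across libraries overlapped.

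In the order of replicates 1, 2 and 3, the TPM of the 7 members summed to 1413.8, 1415.61 and 1494.45 in control libraries. The itaconate sums were 1423.16, 1342.96 and 1485.09. The groups overlapped. Because Ccl3, Ccl4 and Xcl1 made up nearly all of this sum, it could hardly reflect the shifts of Ccl1, Ccl5 and Cxcl10. The share of Xcl1 in that sum was 26.54% ± 1.31 in control and 33.54% ± 2.68 in itaconate cells (SD, n = 3). The share of Ccl3 was 41.03% ± 1.88 and 36.05% ± 2.61, without overlap between the groups for Xcl1 and with overlap for Ccl3.

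**Figure D2:**
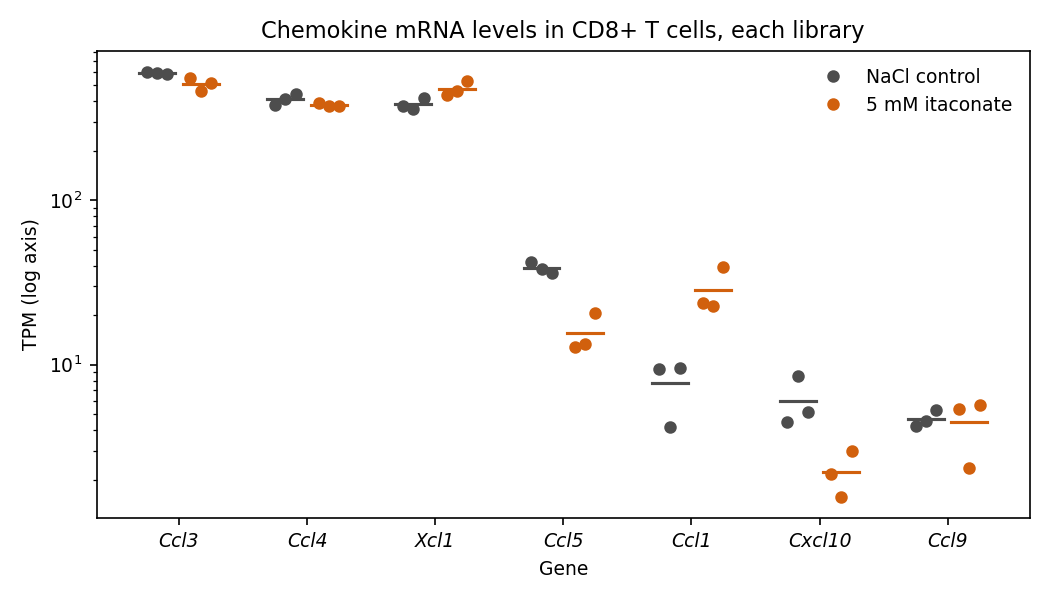
TPM of the 7 chemokine genes on a log axis, with 1 point per library (3 NaCl control, 3 itaconate) and a bar at each group mean. Ccl3, Ccl4 and Xcl1 lie between 359 and 601 TPM in every library, and the remaining genes below 43 TPM, where Ccl5 and Ccl1 change places between the groups.

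Among the CC ligands, Ccl5 attracts T cells and monocytes and is a product of effector and memory CD8 T cells. Its normalised read count (CPM, the rounded count relative to the library total scaled with a TMM factor) was 9.13, 9.09 and 8.92 in control replicates 1, 2 and 3. It was 3.07, 3.44 and 5.10 in itaconate replicates 1, 2 and 3. All 3 itaconate libraries lay below all 3 control libraries, and itaconate replicate 3 was the nearest to them. The log2 fold change was -1.21 ± 0.17 (SE), with an edgeR adjusted p of 0.000542. Each of 14 alternative analyses kept this call, with log2 fold changes from -1.476 to -1.066.

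Ccl1, the ligand of CCR8, is made by activated T cells and attracts CCR8-bearing T cells. It had rounded counts of 53, 20 and 72 in control replicates 1, 2 and 3, or 1.97, 0.966 and 2.29 CPM. Itaconate replicates 1, 2 and 3 had 108, 100 and 219 counts, or 5.34, 5.55 and 9.39 CPM. The groups did not overlap, and control replicate 2 was the lowest and itaconate replicate 3 the highest library. The log2 fold change was 1.93 ± 0.31, with an edgeR adjusted p of 0.00384. It was 1.66 without control replicate 2 and 1.61 without itaconate replicate 3, still called. On TPM values with limma the gene did not pass (adjusted p 0.0509 with a pseudocount of 1 and 0.0609 with 0.1).

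Ccl3 and Ccl4, which draw other leukocytes to activated CD8 T cells, did not pass the test. Ccl3 had 241, 249 and 256 CPM in control and 238, 211 and 228 CPM in itaconate replicates 1, 2 and 3. Its itaconate libraries lay just below the control libraries without overlap. The log2 fold change was -0.14 ± 0.051, with a 95% interval from -0.25 to -0.03 and an edgeR adjusted p of 0.0987. Ccl4 had 121, 139 and 155 CPM in control and 134, 138 and 133 CPM in itaconate replicates 1, 2 and 3. The itaconate values lay inside the control range, and the log2 fold change was -0.04, with an interval from -0.21 to 0.13 (adjusted p 0.8). The sign for Ccl4 turned without control replicate 3, to 0.04.

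Ccl9, a CCR1 ligand known mainly from macrophages and other myeloid cells, stood at 5.01, 4.01 and 6.25 CPM in control and 4.16, 4.49 and 6.31 CPM in itaconate replicates 1, 2 and 3. The groups overlapped throughout. The log2 fold change was -0.03, with a 95% interval from -0.47 to 0.40 (edgeR adjusted p 0.938), and it turned to 0.13 without control replicate 3, 0.08 without itaconate replicate 1 and 0.03 without itaconate replicate 2. Its TPM followed another course, at 4.23, 4.54 and 5.30 in control and 5.36, 2.35 and 5.71 in itaconate replicates 1, 2 and 3. The length that the authors' files assigned to Ccl9 was 2470.5 bases in itaconate replicate 2 and ranged from 1194.78 to 1758.2 elsewhere. GENCODE M21 lists a coding transcript of 3006 bases and a noncoding one of 398 bases for Ccl9, and reads per transcript were not analysed here.

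Xcl1, which attracts cross-presenting dendritic cells, had 77.6, 83.0 and 100 CPM in control replicates 1, 2 and 3. Its itaconate libraries, in the same order, had 101, 115 and 126 CPM. The lowest itaconate library was next to the highest control library, and the groups did not overlap. The log2 fold change was 0.39 ± 0.11, with a 95% interval from 0.12 to 0.66, but the edgeR adjusted p was 0.0705. The gene passed in 5 of 14 alternative analyses, among them DESeq2 (adjusted p 0.00107), edgeR without control replicate 3 (0.00378) and edgeR without itaconate replicate 1 (0.0282). It did not pass without any other single library (adjusted p 0.136 to 0.211).

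Cxcl10 is induced by interferons and attracts CXCR3-bearing T cells. It had rounded counts of 82, 97 and 117 in control replicates 1, 2 and 3, or 3.04, 4.69 and 3.71 CPM. Itaconate replicates 1, 2 and 3 had 25, 21 and 50 counts, or 1.24, 1.17 and 2.14 CPM. The groups did not overlap, and itaconate replicate 3 again lay nearest to the control libraries. The log2 fold change was -1.30 ± 0.27, with an edgeR adjusted p of 0.00709. The call was lost when effective length was modelled (adjusted p 0.0523) and with limma on log2(TPM + 1) (0.0509), and without control replicate 2 the adjusted p was 0.0486.

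Counted by overlap alone, 5 of the 7 members had separate ranges of CPM, higher with itaconate for Ccl1 and Xcl1 and lower for Ccl3, Ccl5 and Cxcl10. Of all tested genes 31.2% had no overlap in CPM, 16.8% with itaconate higher and 14.4% with itaconate lower.

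Of the chemokine genes that lie close together on chromosome 11, only Ccl5 passed the test. Whether its change differed from those of its neighbours was not tested. Counted between gene starts, Ccl4 lies 13.2 kb from Ccl3 on the other strand, Ccl9 70.7 kb and Ccl5 118.8 kb to the other side. Ccl6, a CCR1 ligand between Ccl9 and Ccl3, had 0 to 3 counts per library, and Heatr9, the gene next to Ccl5, had too few counts to be tested. The tested gene outside the chemokines in this window was Taf15, an RNA-binding protein 176.3 kb from Ccl3, with mean CPM of 193 without and 205 with itaconate (edgeR adjusted p 0.603).

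**Figure D3:**
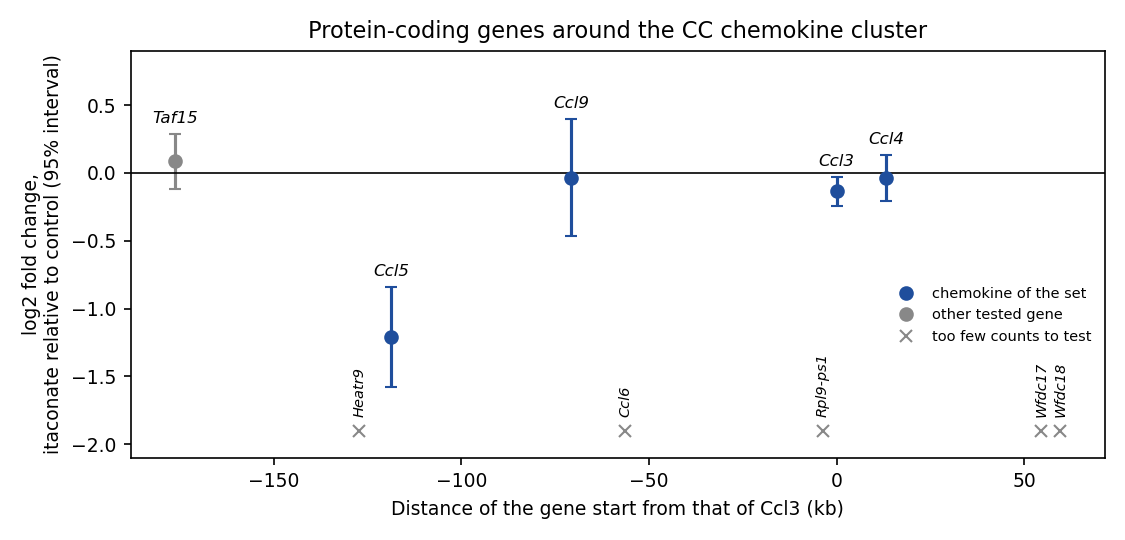
Log2 fold change with 95% interval of protein-coding genes around the chromosome 11 chemokine genes, by the distance of each gene start from that of Ccl3 in kb; crosses mark genes with too few counts to test. Ccl5, at -118.8 kb, lies at -1.21, while Ccl9, Ccl3, Ccl4 and Taf15 lie between -0.14 and 0.09.

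Of the receptors of these ligands, Ccr8 rose, as its ligand Ccl1 did. Ccr8 is a receptor of skin-homing and regulatory T cells. It had 0.742, 1.21 and 0.857 CPM in control replicates 1, 2 and 3. Itaconate libraries, in the same order, had 2.82, 4.77 and 3.95 CPM. The groups did not overlap, the log2 fold change was 2.05 ± 0.29 and the edgeR adjusted p was 0.000491. Without 1 library at a time it stayed between 1.87 and 2.24, always called. Cxcr3, the receptor of CXCL10, had 22.1 ± 3.1 CPM without and 22.5 ± 0.71 CPM with itaconate (mean ± SD, n = 3; log2 fold change 0.02, interval -0.19 to 0.23). Ccr1 and Ccr3 had 0 to 2 counts in every library and Xcr1 0 to 11, too few to be tested. Whether the change of Ccr8 differed from that of Cxcr3 was not tested.

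**Figure D4:**
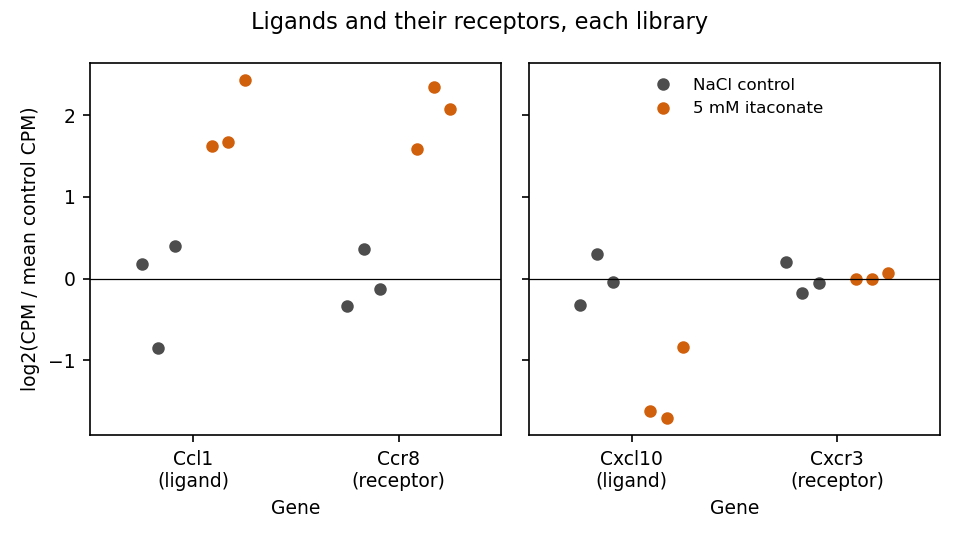
Log2 of CPM relative to the control mean for Ccl1 and its receptor Ccr8 and for Cxcl10 and its receptor Cxcr3, with 1 point per library. Ccl1 and Ccr8 lie above the control libraries in all 3 itaconate libraries, Cxcl10 lies below them, and Cxcr3 overlaps between the groups.

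Among atypical receptors and enzymes that act on chemokines, Dpp4, the peptidase CD26 that trims CXCL10 and CCL5, averaged 57.9 ± 7.5 CPM without and 53.7 ± 3.4 CPM with itaconate (edgeR adjusted p 0.474). Ccrl2, a receptor-like protein that binds chemerin, fell by 1.58 ± 0.39 on the log2 scale, with means of 2.19 ± 0.15 CPM without and 0.705 ± 0.51 CPM with itaconate (edgeR adjusted p 0.0181). Its call was lost without control replicate 2 (0.0686) or 3 (0.0514) and without itaconate replicate 1 (0.0610) or 2 (0.0699). The call was also lost with an offset for effective length (0.086) and with limma on log2(TPM + 1) and log2(TPM + 0.1) (0.051 and 0.0897). The scavenging receptors Ackr2, Ackr3 and Ackr4 had 0 to 3 counts, and Ackr1 had none.

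The other 31 chemokine ligand genes were scarce, and 13 of them had no count in any library. Only Ccl22, Ccl25, Ccl27a and Cxcl16 passed the filter, and none of the 4 passed the test. Their mean levels in control cells lay between 0.773 and 2.54 CPM. Ccl22, a ligand of CCR4 made mainly by dendritic cells, reached 5.71 CPM in itaconate replicate 3 and ranged from 0.888 to 2.32 CPM elsewhere. Cxcl9, induced by interferon-gamma as Cxcl10 is, had 7, 6 and 16 counts in control and 1, 6 and 29 counts in itaconate replicates 1, 2 and 3. It was too scarce to be tested, and again highest in itaconate replicate 3.

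Genes of transcription factors that act at chemokine promoters were read from a list of 28, of which 7 fell, 2 rose and 19 did not pass (edgeR adjusted p, median log2 fold change -0.17), beside 5.36% lower and 6.68% higher among all tested genes. Some of these factors are switched on by antigen receptor or interferon signals. The fallers with the smallest p were Irf4, an activation-induced factor, from 497 ± 12 to 399 ± 11 CPM (mean ± SD, n = 3; edgeR adjusted p 0.000496), and Prdm1, which encodes BLIMP-1, a repressor active in effector T cells, with a log2 fold change of -0.74. Prdm1 did not pass with limma on log2(TPM + 1) or log2(TPM + 0.1) (adjusted p 0.0616 and 0.0680). The risers were Jund, a subunit of AP-1, from 569 ± 24 to 656 ± 27 CPM (adjusted p 0.0147), and Eomes, a T-box factor, from 103 ± 5.9 to 123 ± 14 CPM (adjusted p 0.0477). Of the 6 libraries, only itaconate replicate 2 could be left out with Eomes still passing (adjusted p 0.0105, and 0.0668 to 0.184 without each of the others). Jund did not pass without itaconate replicate 2 (0.0721) or 3 (0.0578) and, at an adjusted p that rounds to 0.05, without control replicate 1. With the effective length offset the adjusted p was 0.0558 for Jund and 0.123 for Eomes. With limma on log2(TPM + 1) it was 0.165 and 0.331, and on log2(TPM + 0.1) 0.163 and 0.33. Eomes also did not pass in edgeR with RLE size factors, another scaling of the libraries (0.0517). Klf13, a factor known for binding the Ccl5 promoter in T cells, was at 136 ± 2.3 and 145 ± 5.1 CPM (adjusted p 0.261).

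Genes of interferon-gamma signalling and of its response, in which Cxcl10 is a classical target, moved both ways. Of 18 tested members of a list of 20, 5 fell, 4 rose and 9 did not pass, with a median log2 fold change of -0.28, beside the same 5.36% lower and 6.68% higher among all tested genes. Gbp5, an interferon-induced GTPase, changed by -0.99 ± 0.095 and Jak2, a kinase below the receptor, from 92.8 ± 6.1 to 65.0 ± 1.3 CPM (edgeR adjusted p 0.000115). Jak1, another kinase of the list, was at 240 ± 12 CPM without and 259 ± 8.5 CPM with itaconate (adjusted p 0.186). Irf8, a transcription factor of the response, rose from 615 ± 51 to 837 ± 43 CPM and Ifngr1, a receptor chain, from 78.3 ± 3.1 to 101 ± 5.5 CPM (adjusted p 0.000542 and 0.000999). The other risers were the receptor chain Ifngr2 and Socs1, with log2 fold changes of 0.61 and 0.29. Every tested Gbp gene of the list was lower with itaconate. Besides Gbp5, Gbp2 stood at -1.02, Gbp7 at -0.60, Gbp3 at -0.42 and Gbp4 at -0.41. Gbp3 and Gbp4 did not pass (edgeR adjusted p 0.0513 and 0.124). Isg15, another faller, stood at -1.43.

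The 250 bases before the RefSeq gene start were searched in RefSeq promoters (GRCm38.p6), which held 5 of the 7 members, for 5 short motifs on both strands. These were GGANNTTCC (bound by NF-kB), TGANTCA (AP-1), GAAANNGAA (interferon response), GGAAAA (NFAT, which overlaps the interferon motif in places) and TTCNNNGAA (STAT). Among 32851 promoters of that length 3.59%, 6.75%, 7.13%, 20.4% and 7.02% held them. The sequences of Cxcl10 and Ccl1 are shown because these genes changed in opposite directions. They are written 5′ to 3′ on the gene's strand, before the start of the RefSeq transcript, at chr5:92348890-92349139 (minus strand) and chr11:82179813-82180062 (minus strand), with matches in capitals. The Ccl1 window lies inside the longer GENCODE span given above, whose start is elsewhere.
Cxcl10: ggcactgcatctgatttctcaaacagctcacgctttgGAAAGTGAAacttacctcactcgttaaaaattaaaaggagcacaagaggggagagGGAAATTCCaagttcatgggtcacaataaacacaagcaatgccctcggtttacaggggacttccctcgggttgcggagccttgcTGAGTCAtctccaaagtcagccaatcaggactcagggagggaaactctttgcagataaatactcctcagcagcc
Ccl1: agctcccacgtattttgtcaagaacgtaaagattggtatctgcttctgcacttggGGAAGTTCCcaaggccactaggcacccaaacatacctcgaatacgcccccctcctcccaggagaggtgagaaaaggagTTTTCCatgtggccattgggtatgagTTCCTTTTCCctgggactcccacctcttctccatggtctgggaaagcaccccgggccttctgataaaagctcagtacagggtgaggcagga
In Cxcl10 the interferon motif matched as GAAAGTGAA at 213 to 205 bases before the start, the NF-kB motif at 158 to 150 and the AP-1 motif at 74 to 68. In Ccl1 the NF-kB motif matched as GGAAGTTCC at 195 to 187 and NFAT motifs at 117 to 112 and 87 to 82. Both NFAT matches were on the other strand, where that at 87 to 82 overlapped an interferon match at 91 to 83. The Ccl3 window held an NFAT and an interferon match on the other strand, the Ccl9 window an AP-1 match, and the Xcl1 window none of these letters. Only these 5 letter patterns were searched, so sites of the same factors in other forms would stay in lower case. Binding at these sites was not measured.

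Genes with the most similar course over the 6 libraries were ranked by the root mean square difference of centred log2 CPM, taken over genes whose mean reached 10 CPM. For Ccl5 they were Ciart (0.163), Slc2a3 (0.227) and Txnip (0.243), and for Cxcl10 Ciart (0.275), Selp (0.310) and Tgm2 (0.312). For Ccl1 they were Lgals3 (0.401), Atp2b4 (0.506) and Abi3 (0.523). Xcl1 was nearest to Gstp1 (0.0534), Ccl3 to Ei24 (0.0132), Ccl4 to Ngdn (0.0266) and Ccl9 to Rab43 (0.126).

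Markers of CD8 T cells were abundant, with all 10 above 0 and a summed level of 3460 to 3591 CPM in control and 3982 to 4006 CPM in itaconate libraries. Cd8a rose from 497 ± 27 to 645 ± 14 CPM and Thy1 from 1165 ± 35 to 1413 ± 9.0 CPM (edgeR adjusted p 0.000297 and 0.000999), and the other 8 did not pass. Thy1 did not pass with the effective length offset (adjusted p 0.158) or with limma on log2(TPM + 1) and log2(TPM + 0.1) (0.185 and 0.182). In bulk RNA, fewer cells of a type and less RNA per cell cannot be told apart. Markers of macrophages and dendritic cells, 13 of 15 above 0, summed to 63.7 to 92.8 CPM in control and 45.7 to 107 CPM in itaconate libraries. Cd74 and the class II genes held most of this, Csf1r and Adgre1 had 0 to 5 counts, and Cd209a and Siglech none. B cell markers, 6 of 6 above 0, summed to 12.2 to 19.4 CPM and 10.2 to 22.4 CPM. CD4 T cell markers, 3 of 3 above 0, summed to 6.27 to 10.2 and 7.88 to 11.6 CPM, and natural killer cell markers, 5 of 5, to at most 1.20 CPM. Granulocyte markers, 8 of 9 above 0 with Ly6g at 0, summed to 0 to 4.01 and 0.0555 to 16.0 CPM. Stromal and endothelial markers, 7 of 8 with Cdh5 at 0, summed to 27.0 to 31.7 and 24.9 to 27.3 CPM. Pecam1 held most of the latter, with means of 25.1 CPM in control and 21.2 CPM in itaconate libraries, and the collagen genes were too scarce to be tested. None of the genes of these lists that were abundant enough to be tested passed in edgeR. Itaconate replicate 3 had the highest sums of macrophage, B cell and granulocyte markers. It also had the highest Ccl1, Ccl5, Ccl9, Xcl1 and Cxcl10 levels of its group. The part of these other cells in the results was not tested. Without that library the log2 fold changes were -1.48 for Ccl5, -1.65 for Cxcl10, 1.61 for Ccl1, 0.31 for Xcl1 and -0.25 for Ccl9.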

How the data were processed

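RNA-seq of CD8+ T cells was deposited as 1 gene table per library, 3 control and 3 itaconate, with groups from the labels. Expected counts, per the file headers the columns of RSEM, are the authors' estimates of reads per gene, not normalised. The deposited TPM values were scaled by the authors by effective length to a common total, and the FPKM values deposited beside them were not used. Bowtie 0.12.2, mm8 and mm10 are named, without a role, in the submitters' processing notes. RSEM version, annotation, strand setting and trimming were not given in the sources used here.

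Expected counts were rounded (5.99% to 6.93% of genes were more than 0.001 from a whole number) and tested with edgeR 4.0.16 in R 4.3.3 (TMM, filterByExpr at 10 counts and a total of 15, robust quasi-likelihood test, two-sided, Benjamini-Hochberg over 12350 genes). Some list genes are not reported here. No pair of libraries within a group agreed within sampling noise. Alternatives used DESeq2 1.42.0, limma 3.58.1, other filters and scalings, and each library left out.

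The members and gene lists were chosen with earlier results of these data known. Named genes were the members, the receptors Ccr8 and Cxcr3, up to 2 risers and 2 fallers of each list by adjusted p, and the 3 nearest profiles of each member. Tested chemokine ligands could also be named. Dpp4, Klf13, Cxcl9, Taf15, Heatr9, Ccl6, the untested receptors and the single markers of other cells were chosen after their values were seen. So were Jak1, Ifngr2, Socs1, Isg15, Gbp2, Gbp3, Gbp4 and Gbp7. GENCODE M21 (GRCm38) gave positions and transcripts, and coding sequences were aligned with Biopython 1.88. CPM are rounded counts over TMM-scaled library totals.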

Additional observations from a re-analysis of the deposited data

How the results depend on the processing

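Of the 14 alternatives, all kept the Ccl5 call, 12 kept those of Ccl1 and Cxcl10, and all kept those of Ccr8 and Cd8a. The number of genes called, 1487 in the reported analysis, was 567 with an offset for effective length, 340 and 356 with limma on log2(TPM + 1) and log2(TPM + 0.1), 2419 with the replicate number as a block, and 726 to 1400 without 1 library, the lowest of them without control replicate 2 (896 without itaconate replicate 2 and 835 without itaconate replicate 3). Members called higher, 1 in the reported analysis, were 2 with DESeq2, without an expression filter and with the replicate block, 0 with limma at either pseudocount, and 1 to 2 without 1 library, with Xcl1 as the gene gained. Members called lower, 2 in the reported analysis, were 1 with the effective length offset, 1 with limma on log2(TPM + 1), 3 with the replicate block (Ccl3 gained, adjusted p 0.0362), and 2 whichever library was left out.

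Signs turned for genes that did not pass. Leaving out 1 library moved Ccl4 between -0.13 and 0.043, Ccl9 between -0.25 and 0.13, Cxcr3 between -0.066 and 0.14, and Dpp4 between -0.18 and 0.0024. Ccl4 was above 0 without control replicate 3. Ccl9 was at 0.13 without control replicate 3, 0.08 without itaconate replicate 1 and 0.03 without itaconate replicate 2. Cxcr3 was at -0.03 with limma at both pseudocounts (-0.033 and -0.034), -0.07 without control replicate 2, -0.02 without control replicate 3 and -0.0061 without itaconate replicate 3. Dpp4 was at 0.0024 without control replicate 1. The causes were not tested.

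Same-numbered libraries are not said to share a mouse or day. Their deviations from the group means correlated at 0.113, 0.0305 and 0.00337 for replicates 1, 2 and 3. Differently numbered libraries correlated at -0.093 to 0.0664. Control replicates 1 and 2 correlated most with the itaconate library of the same number, and control replicate 3 with itaconate replicate 2. These values do not settle whether libraries were paired, and the block was kept as an alternative only. Counts of 20 to 281 per library limit the precision for Ccl1, Ccl5, Ccl9 and Cxcl10.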
